A study of Arabidopsis thaliana with 18 samples.

Results

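The chloroplast has a small genome of its own, and the genes described here are those of its genes that encode subunits of the photosynthetic machinery. They were taken as the probe sets annotated to exactly 1 plastid gene with a symbol in psa, psb, pet or ndh, with the symbol rbcL, or with one of the symbols atpA, atpB, atpE, atpF, atpH and atpI. The mitochondrial nad and atp genes were left out. This gave 43 probe sets of 22746 tested. They cover 43 of the 44 plastid gene symbols of this kind in the gene table. The missing one is ndhB, whose probe set was annotated to both copies of the gene and was left out. By complex the set holds 5 genes of photosystem I, 15 of photosystem II, 6 of cytochrome b6f, 10 of the NDH complex, 6 of the ATP synthase and rbcL for Rubisco.

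These genes are transcribed inside the plastid, by a bacterial-type RNA polymerase with a plastid-encoded core and by a phage-type polymerase encoded in the nucleus. Most lie in operons, so that neighbouring genes share long precursor RNAs, which nuclear-encoded proteins then cut, splice, edit and protect. Photosystem II splits water with light, cytochrome b6f passes its electrons on, photosystem I lifts them to ferredoxin, and the NDH complex returns some of them in cyclic flow. The ATP synthase uses the resulting proton gradient, and Rubisco fixes carbon dioxide. Each complex also needs subunits encoded in the nucleus.

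Shoots of Arabidopsis thaliana harvested at an age of 18 days (the aerial region) supplied the RNA, 1 plant per array and 3 plants in each of 6 groups. The genotypes were the wild type Col-0 (WT) and 2 mutants in the Col-0 background: tt4, impaired in flavonoid synthesis, and sng1, impaired in the synthesis of sinapoyl malate. Their first 17 days passed at 22 °C under 16 h of light and 8 h of dark, on solid medium that held 1% sucrose. On day 18 a plant received either 24 h of ultraviolet light (UV, called UV-B in the series title) or continuous light (CO), for which 8 h of additional light are given. Plants were cut 6 h after the bright phase began. The labels do not say whether UV plants had such extra light, and the running codes in the sample titles put all UV arrays before all CO arrays. UV could not be told apart from a difference in light or from the order of the codes.

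Levels are log2 signals after quantile normalization, where the scale starts at 4, and an array is named by its group and replicate, as tt4_UV 3. A gene is called lower or higher where limma's Benjamini-Hochberg adjusted p over all 22746 probe sets was under 0.05. A change is UV minus CO on the log2 scale with its standard error (SE) from the model. All 43 genes were tested, and none was at the floor of the scale on any array. Within groups the arrays correlated at 0.972 to 0.991. Of 9 leaf markers, the light-harvesting protein gene LHCB4.2 was the only one on a named probe set. Its level was 11.87 to 13.14 over the 18 arrays. The only root marker measured, PYK10, was also well above the floor, as given below, so these markers do not test the aerial label.

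After UV, the RNA of more than 1 in 2 of these genes was lower in each genotype, and none was higher past the threshold. The adjusted test called 25 of 43 lower in WT, against 11.9% of all probe sets in that direction. It called 28 lower in tt4, against 14.1%, and 25 lower in sng1, against 11.6%. In the other direction it called 0 genes of the set, while 12.5%, 12.7% and 11.9% of all probe sets were called higher in WT, tt4 and sng1. At an unadjusted p under 0.05 the count higher was also 0 in each genotype, where 17.6%, 17.2% and 16.7% of all probe sets passed. The unadjusted counts lower were 34, 32 and 30, against 17.4%, 19% and 17.2%. Over the 43 genes the median change in WT, tt4 and sng1 was -0.44, -0.48 and -0.45, beside 0 over all probe sets. Fitted changes were below 0 for 42 genes in WT, 40 in tt4 and 39 in sng1. In this bulk tissue, fewer chloroplasts or plastid genomes per plant and less RNA from each cannot be told apart.

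The same 20 genes were called lower in all 3 genotypes, or 46.5% of the set, against 7.77% of all probe sets. They were psaC and psaI of photosystem I; psbB, psbD, psbE, psbF, psbH, psbL, psbT and psbZ of photosystem II; petA and petG of cytochrome b6f; ndhA, ndhG and ndhH of the NDH complex; atpA, atpF, atpH and atpI of the ATP synthase; and rbcL. Another 7 were called in 2 genotypes, 4 in 1 genotype, and 12 in none, and no share over all probe sets was taken for these counts. The UV arrays lay below the CO arrays with no overlap for 33 genes in WT, 33 in tt4 and 32 in sng1, against 17.4%, 17.7% and 20.8% of all probe sets. For 25 genes every UV array lay below every CO array of its genotype in all 3 genotypes, against 9.89% of all probe sets. Falls of 2-fold or more among the called genes numbered 9 in WT, 4 in tt4 and 2 in sng1, with 3.11%, 3.97% and 2.8% of all probe sets past the same limit.

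**Figure D1:**
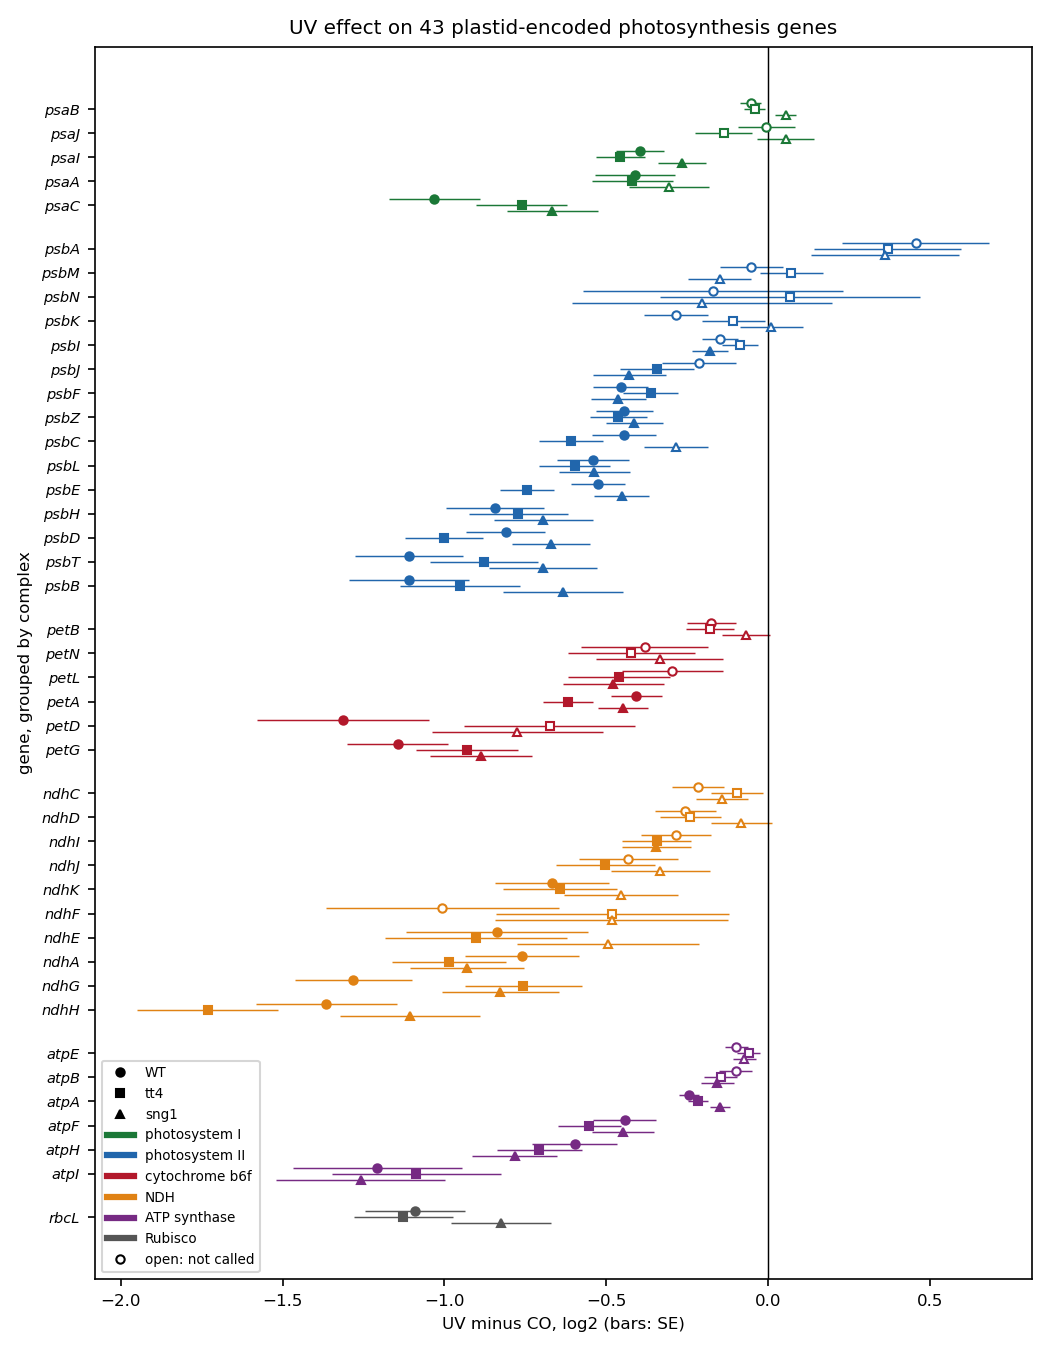
UV minus CO on the log2 scale for each of the 43 genes in WT (circles), tt4 (squares) and sng1 (triangles), grouped and coloured by complex and ordered by mean change within it. Bars are the SE from the model on 18 arrays, and open symbols were not called; ndhH lies farthest to the left, and the 3 open psbA symbols lie to the right of 0.

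Measures of RNA quality moved with the light treatment. The array carries 2 pairs of probe sets for the 3′ and 5′ parts of the actin and GAPDH control transcripts, and a larger 3′/5′ ratio means that less of the 5′ part was measured. The log2 ratio of the first actin pair was 3.04 ± 0.444 in UV and 2.25 ± 0.265 in CO (SD, n = 9 each), a difference of 0.793 (exact permutation test, two-sided, p = 4.11e-05, the smallest it can give, and adjusted p = 0.000165 over the 4 pairs). The second actin pair differed by 0.206 (exact permutation p = 0.0324, adjusted p = 0.0432). The GAPDH pairs differed by -0.156 and 0.0840 (exact permutation p = 0.0982 and 0.0117, adjusted p = 0.0982 and 0.0234). PYK10, a beta-glucosidase gene known from roots and the only one of 7 root markers on a named probe set, ranged from 9.70 to 11.99 in UV and from 11.76 to 12.58 in CO and was called lower in tt4 (-1.60 ± 0.42, adjusted p = 0.0125). Of 6 floral markers none lay on a named probe set. The part of RNA quality and of tissue makeup in the fall of the plastid genes was not tested. The primer used for labelling is not named in the labels, and plastid RNAs mostly lack the long poly(A) tails of nuclear messages.

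The plastid genes of photosystem I split into 3 that were called lower in at least 2 genotypes (psaC, psaI and psaA) and 2 that were called in none (psaB and psaJ), though both were called in WT and tt4 without quantile normalization. The count called lower was 3 of 5 in WT, 3 in tt4 and 2 in sng1. For this and each later complex the shares called lower over all probe sets were 11.9%, 14.1% and 11.6%. The gene psaC encodes the iron-sulfur subunit that hands electrons to ferredoxin, psaA and psaB encode the pair of proteins that hold the reaction centre chlorophylls, and psaI and psaJ encode small membrane subunits.

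In WT, psaC stood at 11.62, 11.73 and 11.78 in the CO plants and at 10.93, 10.50 and 10.61 in the UV plants. In tt4, psaC stood at 11.40, 11.41 and 11.44 in CO and at 10.85, 10.66 and 10.45 in UV. In sng1, psaC stood at 11.25, 11.66 and 11.61 in CO and at 10.72, 11.08 and 10.73 in UV. The groups did not overlap in any genotype. The gene fell by 1.03 ± 0.14 in WT (2.04-fold, adjusted p = 0.000302), by 0.76 ± 0.14 in tt4 (adjusted p = 0.00162) and by 0.67 ± 0.14 in sng1 (adjusted p = 0.00429).

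The reaction centre genes psaA and psaB share an operon and gave different values. In WT, psaA stood between 13.98 and 14.08 in CO and at 13.76, 13.70 and 13.37 in UV. The change of psaA, larger without quantile normalization (-0.70, -0.72 and -0.43), was -0.41 ± 0.12 in WT (adjusted p = 0.0289), -0.42 ± 0.12 in tt4 (adjusted p = 0.0238) and -0.31 ± 0.12 in sng1 (adjusted p = 0.0973). Both calls were lost without single arrays, among them WT_UV 3 (-0.29 in WT) and tt4_UV 3 (-0.26 in tt4), and when only the arrays of the 2 groups were fitted. In contrast, psaB stood at 14.46, 14.46 and 14.50 in CO and at 14.40, 14.46 and 14.40 in UV in WT, where the groups shared a value. Every psaB UV array of sng1, at 14.40 to 14.43, lay above every CO array, at 14.33 to 14.37. The change of psaB was -0.05 ± 0.03 in WT, -0.04 ± 0.03 in tt4 and 0.05 ± 0.03 for sng1, with adjusted p-values of 0.288, 0.413 and 0.276. This gene sits at the top of the scale, and without quantile normalization its change was -0.29 in WT and -0.32 in tt4, both called (adjusted p = 0.0493 and 0.0326), and -0.06 in sng1 (adjusted p = 0.772).

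Of the small subunits, psaI was called lower in each genotype, with -0.40 in WT, -0.46 in tt4 and -0.27 in sng1. The values for psaJ were -0.01, -0.14 and 0.05, and none was called. On the signals as deposited, psaJ was at -0.32 in WT and -0.43 in tt4, both called (adjusted p = 0.0145 and 0.00199), and at -0.12 in sng1.

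Of the 15 plastid genes of photosystem II, 9 were called lower in WT, 10 in tt4 and 10 in sng1, and 8 in all 3 genotypes. The reaction centre is a pair of related proteins, D1 from psbA and D2 from psbD, flanked by the chlorophyll-binding inner antennae CP47 from psbB and CP43 from psbC. The genes psbE and psbF encode both chains of cytochrome b559. Most of the others encode small membrane subunits, and psbN, read from the opposite strand of the psbB operon, encodes an assembly factor.

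D2 and CP47 RNA fell together. In WT, psbD stood at 12.25, 12.03 and 11.93 in CO and at 11.52, 11.09 and 11.17 in UV. In tt4, psbD stood at 11.81, 11.85 and 11.76 in CO and at 10.82, 10.91 and 10.69 in UV. In sng1, psbD stood at 11.48, 11.87 and 11.80 in CO and at 11.06, 10.99 and 11.09 in UV. No UV array reached the level of a CO array of its genotype. The fall of psbD was 1.75-fold (WT), 2-fold (tt4) and 1.59-fold (sng1), or changes of -0.81, -1.0 and -0.67, with an SE of 0.12 and adjusted p-values of 0.000507, 0.000103 and 0.00166.

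The CP47 gene psbB, the lowest of photosystem II by mean change, stood at 12.70, 12.68 and 12.85 in CO and at 11.93, 11.64 and 11.34 in UV in WT. In tt4, psbB had a mean of 12.32 ± 0.20 in CO and 11.37 ± 0.33 in UV (SD, n = 3). In sng1, psbB stood at 12.07, 12.45 and 12.33 in CO and at 11.49, 11.59 and 11.87 in UV. The groups were apart in each genotype. Changes of psbB were -1.11 ± 0.19 in WT, -0.95 ± 0.19 in tt4 and -0.63 ± 0.19 for sng1, with adjusted p-values of 0.000992, 0.00215 and 0.0246. The sng1 call ended on leaving out sng1_UV 1 (-0.55) or 2 (-0.61), or sng1_CO 2 (-0.55) or 3 (-0.61). The tt4 call ended when the tt4 arrays were fitted alone.

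The D1 gene psbA was the one gene of the set whose fitted change was above 0.3 in every genotype, and none of these changes passed the test. In WT, psbA stood at 11.53, 11.74 and 12.21 in CO and at 12.22, 12.03 and 12.60 in UV. In tt4, psbA stood at 11.03, 11.29 and 11.39 in CO and at 11.74, 11.85 and 11.24 in UV. In sng1, psbA stood at 10.79, 11.46 and 11.41 in CO and at 11.69, 11.55 and 11.50 in UV. The groups overlapped in WT and tt4, and in sng1 the UV arrays were all higher. The changes were 0.46, 0.37 and 0.36, with an SE of 0.23 (adjusted p = 0.178, 0.273 and 0.304).

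Within each array the signal of psbA minus that of psbD separated the light treatments, a comparison chosen after the values were seen and given with no test. The difference ran from 0.41 to 1.42 over the 9 UV arrays and from -0.78 to 0.27 over the 9 CO arrays. Its mean was 0.787 ± 0.306 in UV and -0.437 ± 0.319 in CO (SD, n = 9 each). The UV mean exceeded the CO mean by 1.27 (WT), 1.37 (tt4) and 1.03 (sng1). Signals of different probe sets cannot be ranked against each other, so only the shift of this difference between the light treatments can be read.

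**Figure D2:**
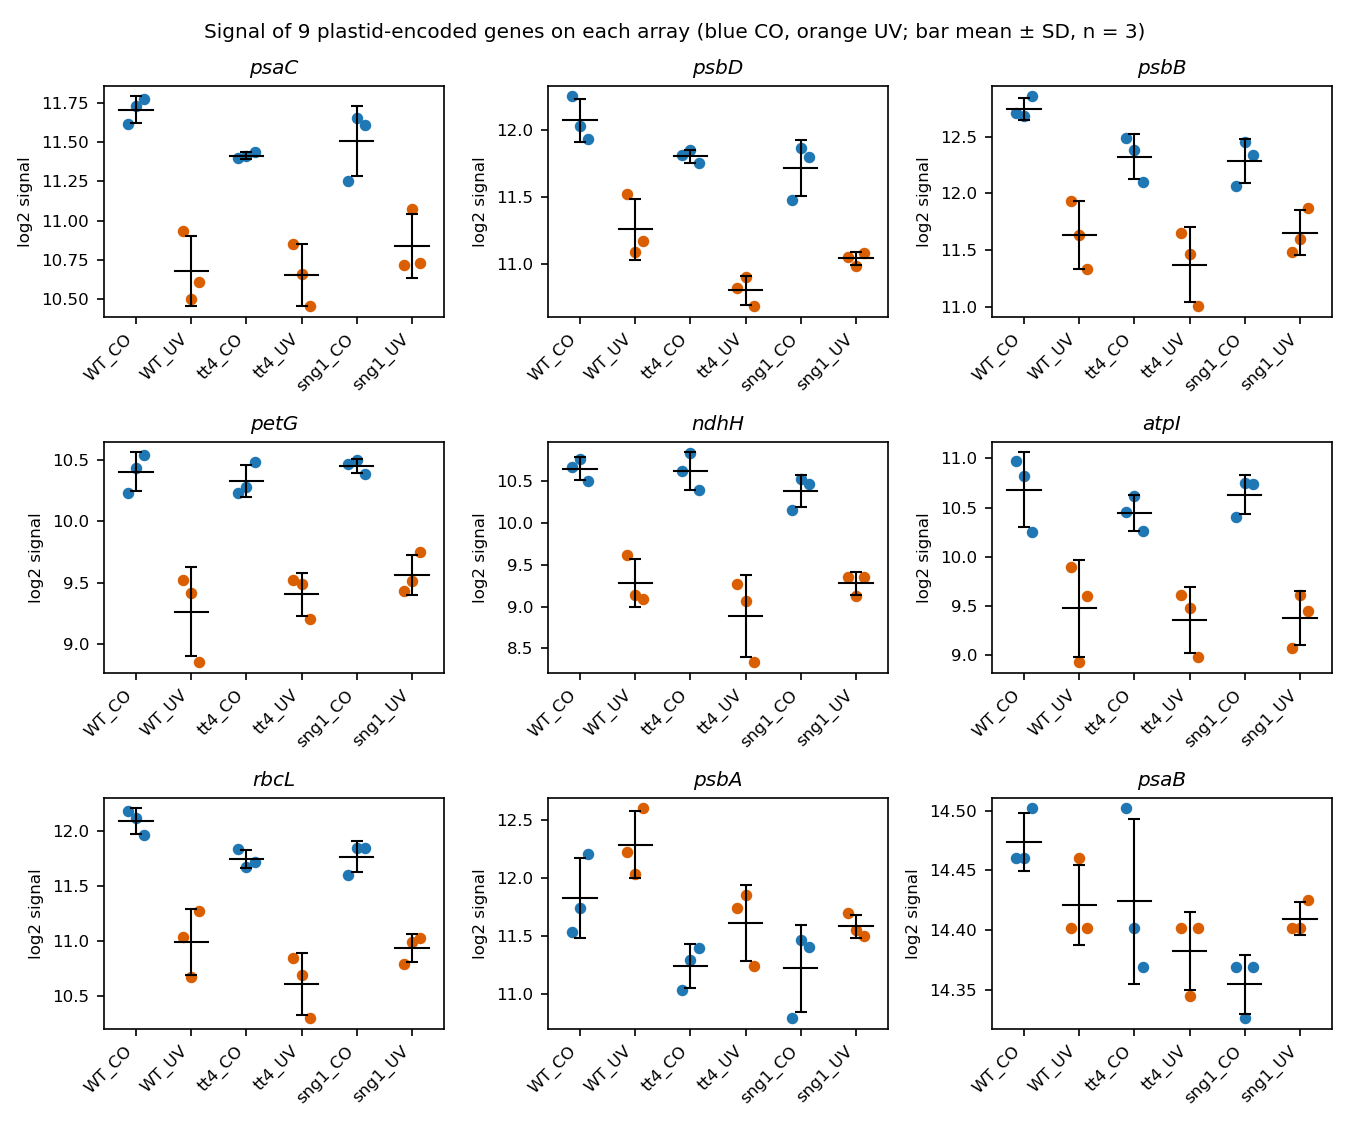
Log2 signal on each of the 18 arrays (points, 3 per group) for 9 genes, with the group mean and SD as bars; CO in blue, UV in orange, and each panel has its own axis. The UV points lie below the CO points of the same genotype for psaC, psbD, psbB, petG, ndhH, atpI and rbcL; psbA lies higher in UV on average, and the psaB axis spans a much narrower range.

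CP43 RNA from psbC, the neighbour of psbD, had changes of -0.44 in WT, -0.61 in tt4 and -0.28 in sng1, called in WT and tt4 (adjusted p = 0.00606, 0.000739 and 0.0566). Both cytochrome b559 genes fell in each genotype, psbE by 0.52, 0.74 and 0.45 and psbF by 0.45, 0.36 and 0.46 in WT, tt4 and sng1. Small-subunit genes that were called in all 3 genotypes were psbH, psbL, psbT and psbZ. Their falls ran from 0.41 for psbZ in sng1 to 1.11 for psbT in WT. The psbJ gene was called in tt4 and sng1 (-0.34 and -0.43) and psbI in sng1 (-0.18). Changes of psbK, psbM and psbN lay between -0.28 and 0.07, and none was called. As deposited, psbK was called in WT and tt4, at -0.59 and -0.41 (adjusted p = 0.00320 and 0.0213). The same scaling added calls of psbI in WT and tt4 (-0.33 and -0.30), of psbJ in WT (-0.30) and of psbC in sng1 (-0.34). Signals of psbM, at 14.28 to 14.80, were among the highest on the array, and those of psbN, at 4.82 to 6.36, were on average the lowest of the set. The tt4 arrays of psbM stood at 14.80 in UV and at 14.73 in CO without overlap, while its tt4 change as deposited was -0.22.

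In the cytochrome b6f complex the test called 3 of 6 genes lower in each genotype, petA and petG in all. The gene petA encodes cytochrome f, petB encodes cytochrome b6, petD encodes subunit IV, and petG, petL and petN encode small membrane subunits.

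In WT, petG stood at 10.24, 10.44 and 10.55 in CO and at 9.52, 9.41 and 8.85 in UV. In tt4, petG stood at 10.24, 10.28 and 10.48 in CO and at 9.52, 9.49 and 9.20 in UV. In sng1, petG stood at 10.47, 10.50 and 10.39 in CO and at 9.43, 9.51 and 9.75 in UV. The 2 light treatments were well apart in each genotype. The changes were -1.15 ± 0.16 in WT, -0.93 ± 0.16 in tt4 and -0.89 ± 0.16 for sng1, with adjusted p-values of 0.000311, 0.00091 and 0.00146.

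The gene petB had the smallest change of the complex. In WT, petB stood at 14.05, 14.02 and 14.25 in CO and at 13.86, 14.08 and 13.86 in UV, and the groups overlapped. Its changes were -0.17 ± 0.07, -0.18 ± 0.07 and -0.07 ± 0.07 (adjusted p = 0.111, 0.0985 and 0.608). Without quantile normalization they were -0.52 and -0.50 in WT and tt4, both called, and -0.21 in sng1 (adjusted p = 0.00117, 0.00105 and 0.110).

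Cytochrome f RNA from petA fell by 0.41 (WT), 0.62 (tt4) and 0.45 (sng1). Values for petD were -1.31, -0.67 and -0.77 with an SE of 0.26, and the WT change alone was called (adjusted p = 0.00318, 0.0802 and 0.0509). As deposited, petD was also called in sng1, at -0.81 (adjusted p = 0.0425). The petL gene was called in tt4 and sng1 (-0.46 and -0.48), and petN, at -0.38, -0.42 and -0.33, in none.

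The 10 genes of the NDH complex had negative fitted changes in every genotype, and 5 were called in WT, 7 in tt4 and 4 in sng1. The complex is the chloroplast relative of respiratory complex I. The genes ndhH, ndhI, ndhJ and ndhK encode subunits of its arm in the stroma, and ndhA, ndhC, ndhD, ndhE, ndhF and ndhG encode subunits in the membrane.

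The largest mean change of the 43 genes was that of ndhH. In WT, ndhH stood at 10.67, 10.77 and 10.50 in CO and at 9.61, 9.14 and 9.09 in UV. In tt4, ndhH stood at 10.63, 10.84 and 10.39 in CO and at 9.27, 9.06 and 8.33 in UV. In sng1, ndhH stood at 10.16, 10.52 and 10.47 in CO and at 9.35, 9.12 and 9.36 in UV. Every UV array lay below every CO array, also across genotypes. The fall was 2.58-fold (WT), 3.32-fold (tt4) and 2.15-fold (sng1), or changes of -1.37, -1.73 and -1.11, with an SE of 0.22 and adjusted p-values of 0.000742, 0.000129 and 0.00274.

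At the other end of the complex, ndhC stood at 13.25, 12.98 and 13.12 in CO and at 12.85, 12.93 and 12.92 in UV in WT. The changes of ndhC were -0.22, -0.10 and -0.14 with an SE of 0.08, and none was called (adjusted p = 0.0666, 0.449 and 0.248). As deposited, without quantile normalization, ndhC was called in WT and tt4, at -0.39 and -0.30 (adjusted p = 0.00694 and 0.0255).

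Also called in all 3 genotypes were ndhA, at -0.76, -0.99 and -0.93, and ndhG, at -1.28, -0.76 and -0.83. The ndhE and ndhK genes were called in WT and tt4, ndhI in tt4 and sng1, and ndhJ in tt4, with changes between -0.90 and -0.28 in the 3 genotypes. Values of ndhD lay between -0.26 and -0.08. Those of ndhF lay between -1.01 and -0.48 with an SE of 0.36, the noisiest after psbN, and neither gene was called. As deposited, ndhD was called in WT and tt4, at -0.43 and -0.44 (adjusted p = 0.00269 and 0.00199), and ndhF in WT, at -1.12 (adjusted p = 0.0380). That scaling also gave ndhI a call in WT (-0.61, adjusted p = 0.00393), and the WT call of ndhE was lost (-0.79, adjusted p = 0.0538).

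In the ATP synthase, the genes of the catalytic head and of the membrane part gave different sizes of change, both with and without quantile normalization. The head subunits alpha, beta and epsilon come from atpA, atpB and atpE, and the membrane part comes from atpF, atpH, which encodes the subunit of the rotating ring, and atpI, which encodes subunit a of the proton channel. The test called 4 of 6 genes lower in WT, 4 in tt4 and 5 in sng1, among them the 3 membrane genes in every genotype.

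In WT, atpI stood at 10.97, 10.82 and 10.25 in CO and at 9.89, 8.92 and 9.60 in UV. In tt4, atpI stood at 10.45, 10.62 and 10.26 in CO and at 9.61, 9.48 and 8.98 in UV. In sng1, atpI stood at 10.41, 10.75 and 10.74 in CO and at 9.07, 9.61 and 9.44 in UV. No UV array of a genotype reached its CO arrays. Changes of -1.21, -1.09 and -1.26 had an SE of 0.26 (adjusted p = 0.00485, 0.00767 and 0.00376), and the WT call was lost when the WT arrays were fitted alone.

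Next to it in membrane function, atpH fell by 0.60, 0.71 and 0.78 and atpF by 0.44, 0.55 and 0.45 in WT, tt4 and sng1. The alpha gene atpA fell by 0.24, 0.22 and 0.15 with an SE of 0.03 (adjusted p = 0.000168, 0.000275 and 0.00351), and as deposited by 0.55, 0.54 and 0.27. The beta gene atpB was at -0.10, -0.15 and -0.16, called in sng1 (adjusted p = 0.197, 0.0531 and 0.0445). As deposited, atpB was called in WT and tt4 instead, at -0.39 and -0.43 (adjusted p = 0.0121 and 0.00594), and was at -0.25 in sng1 (adjusted p = 0.0844).

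The epsilon gene atpE stood at 14.29, 14.34 and 14.29 in CO and at 14.20, 14.20 and 14.24 in UV in WT. Its changes were -0.10, -0.06 and -0.07 with an SE of 0.04, and none was called (adjusted p = 0.0642, 0.258 and 0.168). As deposited, the WT and tt4 changes were -0.38 and -0.28 and were called (adjusted p = 0.00529 and 0.0240). The difference between the head and membrane genes runs alongside signal height, since the 3 head genes lie above 14 on average and the 3 membrane genes below, and the part of signal height in it was not tested.

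The gene rbcL encodes the large subunit of Rubisco, which holds the active site. In WT, rbcL stood at 12.18, 12.12 and 11.96 in CO and at 11.04, 10.67 and 11.27 in UV. In tt4, rbcL stood at 11.83, 11.67 and 11.72 in CO and at 10.84, 10.70 and 10.30 in UV. In sng1, rbcL stood at 11.60, 11.85 and 11.84 in CO and at 10.79, 10.99 and 11.03 in UV. The UV arrays of all genotypes lay below the CO arrays of all genotypes. The changes were -1.09 ± 0.15, -1.13 ± 0.15 and -0.83 ± 0.15, or 2.13-fold, 2.18-fold and 1.77-fold lower (adjusted p = 0.000363, 0.000228 and 0.00204). The small subunit is encoded in the nucleus, and its genes were not on named probe sets.

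The median change was below 0 in every complex and genotype. In WT the median change was -0.40 for photosystem I, -0.44 for photosystem II, -0.39 for cytochrome b6f, -0.71 for the NDH complex and -0.34 for the ATP synthase. In tt4 the medians in that order were -0.42, -0.46, -0.54, -0.57 and -0.38. In sng1 they were -0.27, -0.43, -0.46, -0.47 and -0.30. The NDH median was the lowest of these 5 in each genotype. The differences between complexes were not tested.

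**Figure D3:**
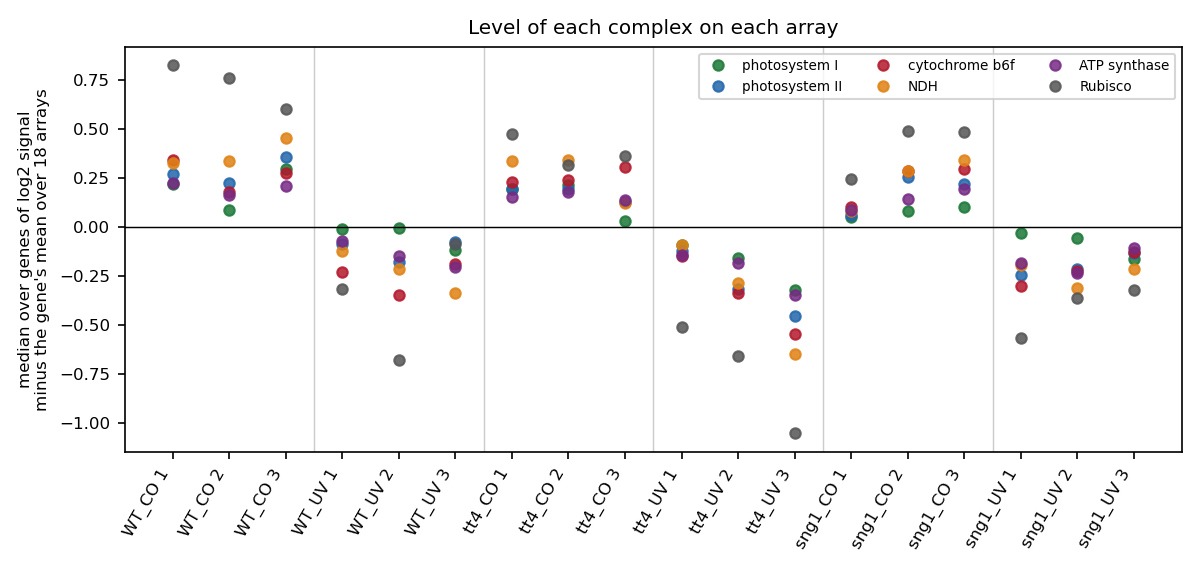
Median over the genes of each complex of the log2 signal minus the gene's mean over the 18 arrays, for every array; colours give the complexes. All complexes lie above 0 on the 9 CO arrays and below 0 on the 9 UV arrays, with tt4_UV 3 the lowest and sng1_CO 1 the lowest of CO for most complexes.

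Single plants differed within groups, and genes of the set moved together there. On tt4_UV 3, 37 of the 43 genes lay below the mean of their group, with a median deviation of -0.17. Its counterpart tt4_UV 1 had 3 genes below the group mean and a median deviation of 0.17. On sng1_CO 1, 34 genes lay below the group mean, by a median of -0.11. On the other 15 arrays the number below was 9 to 28. Without tt4_UV 3 and sng1_CO 1 together, an alternative added after seeing the data, the counts called lower were 29 in WT, 22 in tt4 and 26 in sng1, with medians of -0.44, -0.41 and -0.49. Of all probe sets, 24.4%, 22.7% and 20% were then called in either direction. The psaA call in tt4 was lost without tt4_UV 3.

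The 3 genotypes gave much the same order of genes. Across the 43 genes the UV effects of WT and tt4 correlated at 0.880, those of WT and sng1 at 0.897 and those of tt4 and sng1 at 0.904. These are descriptions over genes, which share probe sets, operons and signal height across the genotypes. None of the 43 genes was called in the 2 comparisons of the UV effects of a mutant and WT, where all probe sets together gave 1 call (0.0044%) for tt4 and 0 (0%) for sng1. At an unadjusted p under 0.05 the counts of the set were 0 for tt4 and 2 for sng1, against 4.54% and 3.02% of all probe sets. The 2 for sng1, psaB and atpA, had differences of 0.11 and 0.09.

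Within 1 light treatment no gene of the set was called between genotypes either. The calls over all probe sets were 3 for tt4 against WT under UV (0.0132%), 5 for sng1 against WT under UV (0.022%), 5 for tt4 against WT in CO (0.022%) and 2 for sng1 against WT in CO (0.00879%). The unadjusted counts of the set were 8, 4, 4 and 8, against 4.76%, 4.44%, 4.59% and 5.1% of all probe sets.

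The gene psbA was among the unadjusted ones in all 4 comparisons. Mutant minus WT was -0.67 (tt4) and -0.70 (sng1) under UV and -0.59 (tt4) and -0.61 (sng1) in CO, with an SE of 0.23 and adjusted p of 0.895 to 1. The tt4 and sng1 values share the WT arrays. Also below WT in both mutants in CO at an unadjusted p under 0.05 were psbB, at -0.42 for tt4 and -0.46 for sng1 (adjusted p = 1 and 0.923), and psbD, at -0.27 for tt4 and -0.36 for sng1 (adjusted p = 1 and 0.835). Under UV, psbD was at -0.46 in tt4 (adjusted p = 0.829). Above WT under UV at the same unadjusted limit were petD in tt4 (0.59) and sng1 (0.81), and ndhF (1.00) and ndhG (0.43) in sng1. All other genes at this limit in the 4 comparisons lay below WT.

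Gene order on the plastid genome was taken from the start positions in the gene table, and operons are those known from the literature. Neighbours in 1 operon often differed in the size of their change. RNA of a shared precursor can bind to several probe sets, so neighbours are not independent. In the operon that runs from ndhH to ndhD, 7 genes of the set had mean changes over the genotypes from -1.40 for ndhH to -0.19 for ndhD. The psbB operon ran from -0.92 for petD to -0.10 for psbN, which lies on the other strand. The 3 genes petL, petG and psaJ ran from -0.99 for petG to -0.03 for psaJ. In the operon of atpI, atpH, atpF and atpA the changes were -1.18 for atpI, the first of the 4, then -0.70, -0.48 and, for atpA, the last, -0.20. Mean signals of these 4 genes were 9.99, 13.61, 13.53 and 14.11, and the part of signal height in this order was not tested. The operon was singled out after its values were seen. The neighbours ndhJ, ndhK and ndhC, at -0.42, -0.59 and -0.15, did not change step by step. The 4 genes psbE, psbF, psbL and psbJ lay closer together, between -0.57 and -0.33, and psbK and psbI at -0.13 and -0.14.

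**Figure D4:**
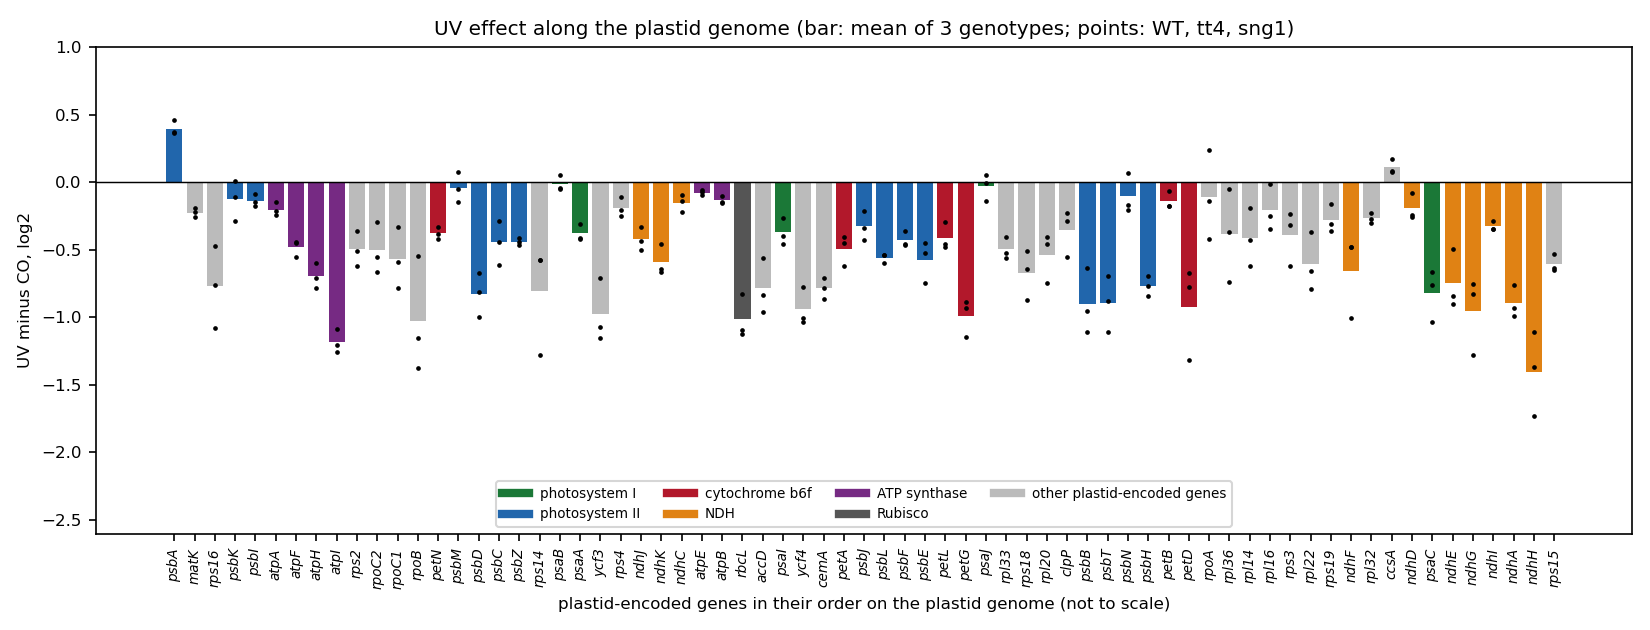
Mean UV effect of the 3 genotypes (bars; points give WT, tt4 and sng1, log2) for the plastid genes of the set, coloured by complex, and the 26 other plastid genes, in grey, in their order on the plastid genome, not to scale. Most bars point down along the whole order; psbA at the left end and ccsA are the bars above 0.

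Signal height went along with the size of the change. Plastid RNAs are abundant, and 12 of the 100 brightest and 26 of the 1000 brightest probe sets belonged to the set, with 41 of 43 above the middle of the ranking by mean signal. The 6 genes with a mean log2 signal of at least 14 (atpA, atpB, atpE, petB, psaB and psbM) had a median mean change of -0.11, and 1 of them was called in all 3 genotypes. The 11 genes between 13 and 14 had a median of -0.37, the 8 between 12 and 13 one of -0.51, and the 7 between 11 and 12 one of -0.56. Below that, the 7 genes between 9 and 11 had a median of -0.89 and the 4 under 9 one of -0.79, so the order turned back at the dim end. For the other probe sets at the same heights the medians lay between -0.03 and 0.04.

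Part of this pattern depended on the scaling. On the signals as deposited, the 6 brightest genes had a median of -0.32 and those between 13 and 14 one of -0.58. The next groups down had medians of -0.62, -0.54, -0.87 and -0.83, which do not follow signal height step by step. The counts called lower as deposited were 36 in WT, 37 in tt4 and 27 in sng1, against 12.8%, 13.6% and 12.6% of all probe sets. Still 0 were called higher, where all probe sets gave 2696, 3004 and 2600 such calls. The 43 genes made up 2.66 ± 0.0718% of the summed deposited signal in WT_CO, 2.55 ± 0.167% in tt4_CO and 2.31 ± 0.0622% in sng1_CO (SD, n = 3). Under UV the shares were 1.92 ± 0.0548%, 1.85 ± 0.197% and 1.85 ± 0.119%.

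**Figure D5:**
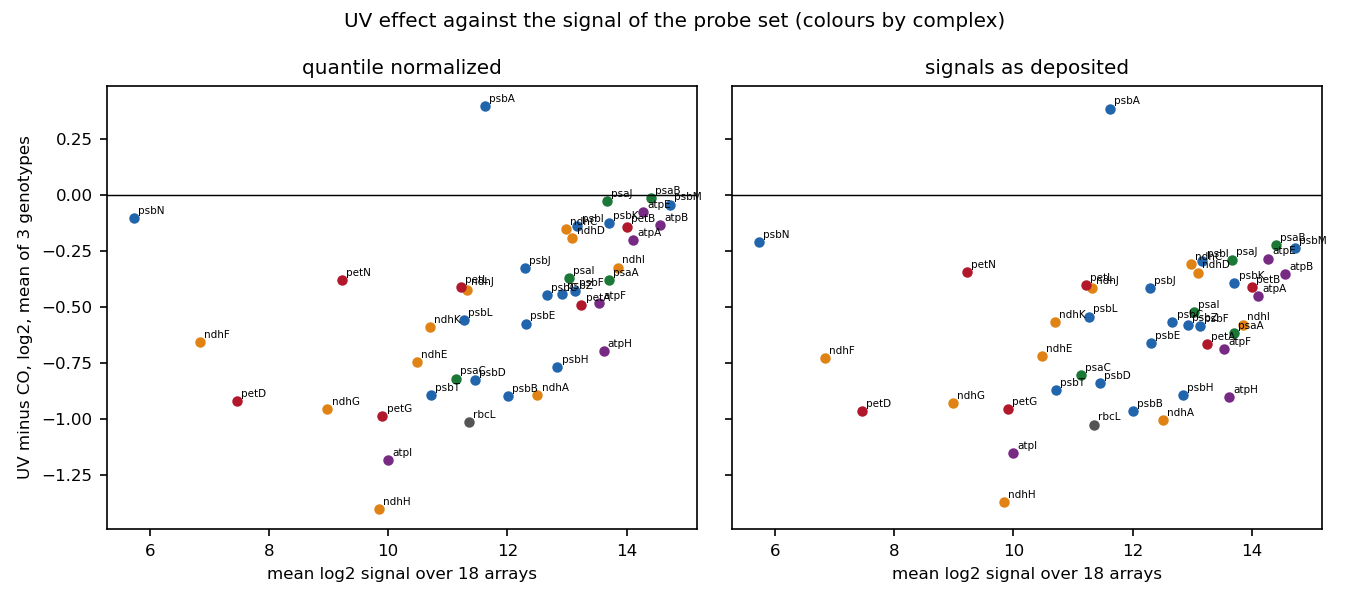
Mean UV effect over the 3 genotypes (vertical, log2) against the mean log2 signal over 18 arrays (horizontal) for the 43 genes, coloured by complex, after quantile normalization (left) and on the signals as deposited (right). The brightest genes approach 0 on the left and lie lower on the right, while psbA stays above 0 in both.

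Other plastid genes fell along with the photosynthesis genes. Of 26 genes for the plastid's polymerase, ribosome and other functions, 16 were called lower in WT, 19 in tt4 and 10 in sng1. The number called higher was 0, and the medians were -0.53, -0.64 and -0.36. Of all probe sets, 11.9%, 14.1% and 11.6% were called lower and 12.5%, 12.7% and 11.9% higher. The polymerase core gene rpoB fell by 1.38 ± 0.15 (WT), 1.16 ± 0.15 (tt4) and 0.54 ± 0.15 (sng1). Levels of rpoB were 8.32, 8.44 and 8.43 in WT_CO and 7.41, 6.77 and 6.88 in WT_UV. The ribosomal gene rps14, which follows psaA and psaB in their operon, fell by 1.28, 0.57 and 0.57, and cemA, an envelope membrane protein gene next to petA, by 0.71, 0.86 and 0.78.

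Of 17 probe sets for mitochondrial respiration genes, 4 were called higher in each genotype, and 0, 2 and 1 were called lower in WT, tt4 and sng1. All probe sets gave 12.5%, 12.7% and 11.9% higher and 11.9%, 14.1% and 11.6% lower. The complex I subunit gene nad1 had 7 probe sets that disagreed: 3 rose in each genotype, by 1.11, 1.45 and 0.59 in WT, while 1 fell by 0.79 in tt4 and the other 3 were not called. The cytochrome oxidase gene cox2 rose by 0.75 (WT), 0.68 (tt4) and 1.14 (sng1). The WT call of cox2 was lost when the WT arrays were fitted alone.

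Nuclear genes for subunits of the same complexes were mostly on unnamed probe sets, and 6 of 55 were measured. Of these 1 was called lower in WT, 2 in tt4 and 2 in sng1, few genes to set against 11.9%, 14.1% and 11.6% of all probe sets. PSAN, a photosystem I subunit on the lumen side, fell by 0.62, 0.61 and 0.70, and the ATP synthase gamma gene ATPC1 was at -0.12, -0.21 and -0.16, called in tt4 and sng1. ATPC2, the second gamma gene, was at -0.43, -0.35 and -0.25 and was not called.

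Of 10 measured genes for plastid RNA editing and processing, 3, 0 and 2 were called higher and 2, 4 and 1 lower in WT, tt4 and sng1. The shares over all probe sets were 12.5%, 12.7% and 11.9% higher and 11.9%, 14.1% and 11.6% lower, so that several of these counts lie near them. CRR21, an editing factor for ndhD, fell by 0.88, 1.01 and 0.64, and LPA66, an editing factor for psbF, fell by 0.48 in WT and 0.53 in tt4 and was at -0.19 in sng1. OTP80, an editing factor, was at the floor of 4 on each WT_CO array and at 5.30 to 5.69 in WT_UV, and its WT call was lost with a floor of 64. In tt4 no gene of this list, OTP80 among them, rose by more than 0.18. The difference between the UV effects of tt4 and WT was called for 0 of the 10 genes (smallest adjusted p = 0.421). Of 43 genes for plastid transcription, 1 was measured: MRL7-L, at 0.11, -0.04 and 0.33 and called higher in sng1 (adjusted p = 0.0216).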

How the data were processed

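The deposited values are linear signal intensities, 1 per probe set and array, for 22810 probe sets of 18 biotin-labelled hybridizations made from 10 µg of total RNA, per the labels' protocols. No source used here names the software that made them. Without the highest and lowest 2% the mean was 500 on every array, and array medians were 163 to 185, so the authors' intensities had been scaled. The intensities were quantile normalized in limma 3.58.1 (R 4.3.3) with control probe sets included, and the 64 controls were then removed. Values under 16 were set to 16 (17.55% of values) and log2 was taken. One model with 6 groups was fitted (12 residual degrees of freedom, eBayes), with 9 comparisons, and p-values were adjusted by Benjamini-Hochberg over 22746 probe sets. The number of arrays limits the precision, with a median SE of 0.121 over the set and 0.170 over all probe sets. The code was tested on simulated data.

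Gene names came from the supplied annotation, in which 13513 probe sets had 1 gene, 503 several and 8730 none listed. The genes, lists and tests were chosen with earlier results of these data known. Named by rule were psaA, psbA, psbD, rbcL and, per complex, the genes with the highest and lowest mean UV effect. Their changes are given for each genotype, and their array values in some cases for WT alone. From each comparison list up to 3 genes with the smallest adjusted p in WT were given. Other genes given with values were chosen after their values were seen. Replicate numbers were not treated as pairs in the main model. Deviations of same-numbered UV and CO arrays correlated at -0.24 to 0.20, which with 3 plants per group cannot exclude a pairing. Alternatives varied scaling, floor, dim filter, array weights, eBayes settings, block, fitted groups and single arrays.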

Additional observations from a re-analysis of the deposited data

How the results depend on the processing

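The direction held under the alternatives run, where no gene was called higher and none was called in any genotype comparison or interaction. The counts called lower were 21 to 36 in WT, 19 to 37 in tt4 and 19 to 30 in sng1 over 10 alternatives. Of all probe sets, 12.9% to 39%, 13.3% to 41.6% and 21% to 37.8% were then called in either direction. The share called lower alone was taken only for the main fit and the other scalings. Leaving out single arrays gave 23 to 28, 21 to 28 and 18 to 24, given here without shares over all probe sets. Of the named results' alternatives, 909 kept their side of the threshold, 36 gained a call and 19 lost one. No change that was called in either fit reversed its sign. Uncalled changes near 0 could do so, as psaB in sng1 (-0.06 to 0.07) and LHCB4.2 in WT (-0.09 to 0.11). The psaA call in WT was lost without WT_UV 3 (-0.29) and without each WT_CO array (-0.43 to -0.38), and in tt4 without tt4_UV 3 (-0.26), tt4_CO 1 (-0.40) or tt4_CO 2 (-0.37). Median changes in WT, tt4 and sng1 were -0.61, -0.65 and -0.47 as deposited and -0.54, -0.66 and -0.40 with arrays centred on their medians. Centring on nuclear genes gave -0.54, -0.66 and -0.40. With arrays centred on their medians the counts called lower were 34, 37 and 21, against 10.7%, 14% and 9.8% of all probe sets. So sng1 moved less there than in the main fit, while WT and tt4 moved more. Leaving out single arrays, the medians were -0.49 to -0.42 in WT, -0.61 to -0.41 in tt4 and -0.49 to -0.38 in sng1. The causes were not tested. With the replicate block the counts were 25, 26 and 24, where 23.8%, 26.2% and 23% of all probe sets were called in either direction. With the compared groups fitted alone, calls over all probe sets were 2929 in WT and 3023 in tt4, against 5540 and 6080 with all groups. The lower share of all calls was 49.5% in sng1 and 41.3% with arrays centred on their medians. Without single arrays the first GAPDH pair differed by -0.225 to -0.123, the second by 0.0620 to 0.0974, the first actin pair by 0.671 to 0.854 and the second by 0.106 to 0.238; the call of the second actin pair was lost without WT_UV 3, WT_CO 1 or 2, tt4_CO 3, or any sng1_CO array, and the first GAPDH pair passed without WT_UV 3.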
